A study of Mus musculus with 8 samples.

Results

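The EGF receptor family is a group of cell-surface tyrosine kinases with their secreted or membrane-tethered ligands. A ligand is cut from the cell surface, binds a receptor of the same or a neighbouring cell and drives 2 receptors to pair, and the pair signals through RAS and ERK and through PI3K. In the intestinal crypt this pathway is a main mitogenic signal for the stem and progenitor cells, EGF is a standard component of intestinal organoid medium, and inhibitors made by the same cells, such as ERRFI1, hold it in check.

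The 10 members were taken by gene name from the table of the whole series, which lists 55114 genes: the receptors Egfr, Erbb2 and Erbb3, the ligands Egf, Tgfa, Hbegf, Areg, Ereg and Btc, and the inhibitor Errfi1. All 10 were found once and all 10 passed the filter on low counts, as did 16109 genes in all. The crypts had been shaken loose with EDTA from the gut of 4 constitutive Mex3a KO mice (Mex3a-/-) and 4 littermate controls (WT, called Ctrl in the labels), of strain C57BL/6 and 8 weeks old, and total RNA of each mouse was sequenced. The KO allele lacks exon 1 and part of exon 2 of Mex3a, an RNA-binding protein gene, in every tissue of the mouse, and neither the segment of intestine nor the sex of the mice is given in the labels.

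Each WT library held 20324184 to 24726221 counted reads and each KO library 23489180 to 30654105. Mex3a itself was at 13.3 ± 2.10 CPM in WT (counts scaled to a common library size by TMM; SD, n = 4 mice) and at 0.613 ± 0.417 in KO (SD, n = 4), so the libraries matched their labels. Xist and the Y-linked gene Ddx3y divided each genotype into 2 mice with Xist (replicates 3 and 4) and 2 with Ddx3y (replicates 1 and 2). All 10 crypt stem cell markers were detected, and their summed level, 5650 to 6230 CPM in the WT mice, was 4289 to 5258 CPM in the KO mice, with no overlap. All 10 had a log2 fold change below 0, 5 of them with an unadjusted p under 0.05. Olfm4 made up 61.1% to 71.9% of the sum, and the other 9 markers overlapped, at 1752 to 2137 CPM in WT and 1466 to 1892 CPM in KO. The 12 stroma markers summed to at most 33.7 CPM and the 12 immune markers to at most 123 CPM in any mouse, with Lum, Pdgfra, Cpa3 and Gata3 under 10 counts in every mouse. In whole crypts, fewer cells of a type and less RNA per cell cannot be told apart.

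The ligands Areg and Ereg and the inhibitor Errfi1 were higher in KO crypts, and Egfr, the receptor to which these ligands bind, was lower. Ereg differed most, at 2.26-fold of WT, followed by Areg at 1.69-fold, Errfi1 at 1.35-fold and Egfr at 0.862-fold. By edgeR's quasi-likelihood test, these 4 of the 10 members passed an unadjusted p of 0.05, the threshold of the study. Of these, 3 were higher in KO, against 5.33% of all genes tested, and 1 was lower, against 3.05%. In either direction 8.38% of all genes passed. The members were chosen with earlier results of these data known, so setting them beside all genes describes them and is no test. None of the 10 had an adjusted p under 0.05 in edgeR's test (Benjamini-Hochberg over all 16109 genes, smallest 0.518). Of all genes, 0.00621%, namely Mex3a alone, did in that test. With DESeq2 none of the 10 did either (smallest adjusted p 0.0608, for Areg). On counts simulated with edgeR's dispersions, 19.7% of DESeq2's calls were false. The median log2 fold change of the 10 members was 0.12, against -0.016 over all genes tested, and 7 of them lay above 0, as did 46.1% of all genes.

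Areg and Ereg lie beside each other in the epidermal growth factor ligand cluster of mouse chromosome 5. In GRCm38, the build of the deposited coordinates, Ereg (ENSMUSG00000029377) spans chr5:91074622-91093646 and Areg (ENSMUSG00000029378) chr5:91139599-91148432, both on the plus strand and 46.0 kb apart. Btc (ENSMUSG00000082361; chr5:91357261-91402994, minus strand) lies 209 kb further on, and Epgn (chr5:91027464-91035215), the ligand epigen, opens the cluster on the other side. Errfi1 (ENSMUSG00000028967) lies at chr4:150853919-150868892, on the plus strand. The following 2 stretches of 30 bases are shown because Areg and Errfi1, which were both higher in KO, carry the same palindromic motif just before the start sites that RefSeq gives them. The one of Errfi1 lies inside the span of the gene model given above. They come from RefSeq promoters of GRCm38.p6, run 5′ to 3′ on the plus strand, and have in capitals the cyclic AMP response element (CRE), TGACGTCA.

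Areg, chr5:91139527-91139556, motif 61 bases before the start: gggctggtccgTGACGTCAcgggcggtggc
Errfi1, chr4:150855008-150855037, motif 51 bases before the start: gctgcgggcgtTGACGTCAcgttgtcgctc

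The promoters searched ran from 250 bases before to 50 after each start, on both strands, and 7 of the 10 members were found among them (not Ereg, Erbb3 or Hbegf). Counted per gene, as the members are, the CRE was in 2 of these 7, Areg and Errfi1, and in 3.53% of 10889 tested genes with a promoter in the table (1.79% of all 32851 promoters). Both members also held the TATA box letters TATAAA, which did not overlap the CRE and which 9.42% of the tested genes held (13.6% of all promoters). The AP-1 motif TGANTCA was in none of the 7, in 6.58% of the tested genes and in 7.81% of all promoters. The letters CACCC, the core bound by Kruppel-like factors, were in 6 of the 7, all but Errfi1, in 66.6% of the tested genes and in 57.5% of all promoters. A match is a description of the letters and not evidence of binding.

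Areg encodes amphiregulin, a ligand of EGFR. It had 171, 118, 152 and 156 reads in WT replicates 1 to 4, and 332, 199, 289 and 362 in KO replicates 1 to 4, which is 7.90, 5.51, 7.42 and 6.52 CPM in WT against 13.9, 7.72, 12.5 and 12.0 CPM in KO. All but 1 of the 4 KO mice lay well above the WT range, and KO replicate 2 lay just under WT replicate 1, so the genotypes overlapped. The means were 6.84 ± 1.05 and 11.6 ± 2.68 CPM (SD over 4 mice each), and on the log2 scale the difference was 0.76 ± 0.20 (SE; unadjusted p = 0.00424, adjusted p = 0.518 in edgeR's test; two-sided exact permutation p = 0.0571). With library totals in place of TMM the genotypes did not overlap (two-sided exact permutation p = 0.0286, the smallest that 4 mice against 4 allow). In all 4 same-numbered pairs the KO mouse had more Areg. A fit by edgeR's test blocked on replicate number gave an unadjusted p of 0.000832 (adjusted p = 0.174). In that fit 11.3% of all genes tested passed the unadjusted threshold. For Ereg and Errfi1 it gave unadjusted p-values of 0.00631 and 0.00723, each higher than without the block.

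Ereg encodes epiregulin, which binds EGFR and ERBB4. It is a weakly expressed gene here, with 42, 61, 29 and 64 reads in WT replicates 1 to 4 and 102, 80, 114 and 235 in KO replicates 1 to 4. On the CPM scale these were 1.94, 2.85, 1.42 and 2.67 in WT and 4.28, 3.10, 4.93 and 7.81 in KO. Every KO mouse was above every WT mouse, with the smallest gap between KO replicate 2 and WT replicate 2 and the highest level in KO replicate 4. The log2 fold change was 1.18 (standard error 0.33, 95% interval 0.45 to 1.91, unadjusted p = 0.00525, adjusted p = 0.518 in edgeR's test), and the two-sided exact permutation p was 0.0286. Counting error alone gives a coefficient of variation of 14.3% at the mean count of the WT mice, against 30% measured between them. Without KO replicate 4 the log2 fold change was 0.88.

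Errfi1 encodes ERRFI1 (MIG6), which binds the kinase domain of the receptors and blocks it, and which is itself induced by EGFR signalling. It was at 44.7, 38.5, 45.5 and 38.1 CPM in WT replicates 1 to 4 and at 57.7, 46.4, 52.8 and 67.7 CPM in KO replicates 1 to 4. All 4 KO mice were above all 4 WT mice, and here too KO replicate 2 was the lowest KO mouse and KO replicate 4 the highest. The log2 fold change was 0.43 (standard error 0.12, unadjusted p = 0.00556, adjusted p = 0.518 in edgeR's test; two-sided exact permutation p = 0.0286).

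**Figure D1:**
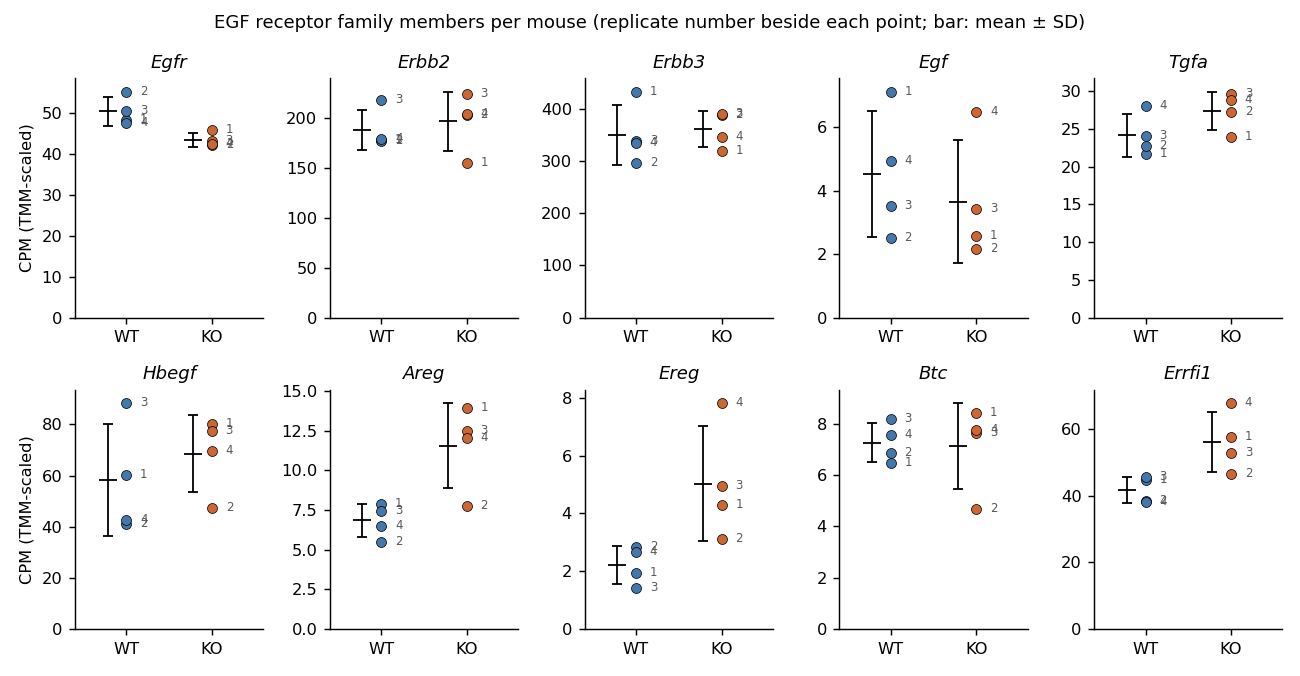
TMM-scaled CPM of the 10 members in each of 8 mice (vertical axes from 0, horizontal axes genotype; points are mice with their replicate number, bars the mean ± SD). Ereg and Errfi1 lie above the WT range in all 4 KO mice and Egfr below it, Areg overlaps at KO replicate 2, and Erbb2, Erbb3, Btc and Egf overlap widely.

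Egfr encodes the receptor that Areg, Ereg, Tgfa, Hbegf, Btc and Egf products all bind. It spans chr11:16752203-16918158 (ENSMUSG00000020122) and was at 48.2, 55.1, 50.6 and 47.5 CPM in WT replicates 1 to 4, against 45.8, 42.2, 43.2 and 42.4 CPM in KO replicates 1 to 4. Every KO mouse was below every WT mouse, by a small margin, and the spread between mice was 6.82% of the mean in WT and 3.78% in KO, where counting error gives 3.02% and 3.0%. The log2 fold change was -0.21 (standard error 0.070, 95% interval -0.37 to -0.056, unadjusted p = 0.0134, or 0.0279 with the replicate block, adjusted p = 0.518 in edgeR's test; two-sided exact permutation p = 0.0286). With library totals in place of TMM the genotypes overlapped (two-sided exact permutation p = 0.0571), as WT replicate 4 then lay at 46.0 CPM and the highest KO mouse at 46.4 CPM.

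Of the 10 members, 2 (Ereg and Errfi1) had all KO mice above all WT mice, against 2.17% of all genes tested. The other way, 1 (Egfr) had all KO mice below, against 1.87%. As the members were chosen with earlier results known, this too is a description and no test.

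The other receptors did not pass either threshold. Erbb2, which has no known ligand of its own and pairs with the other receptors, was at 177, 177, 218 and 179 CPM in WT and 154, 202, 224 and 204 CPM in KO, with a log2 fold change of 0.064 (95% interval -0.21 to 0.34). Erbb3, whose kinase is impaired and which binds neuregulins, was at 433, 296, 339 and 335 CPM in WT and 320, 390, 392 and 346 CPM in KO, with a log2 fold change of 0.046 (95% interval -0.23 to 0.33). For both genes the KO values lay inside or around the WT values, and the intervals leave differences of about the size seen for Egfr possible. Erbb2 shares bases with Mien1 on the other strand, which had 205 to 365 reads against at least 3679 for Erbb2, and whether reads were counted by strand is not given in the sources used here.

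The other 4 ligands overlapped between the genotypes. Tgfa, which encodes transforming growth factor alpha, was at 21.7, 22.7, 24.1 and 28.1 CPM in WT and 23.9, 27.2, 29.6 and 28.9 CPM in KO. The KO mouse was the higher in all 4 same-numbered pairs, but the ranges crossed (log2 fold change 0.18, 95% interval -0.070 to 0.43, unadjusted p = 0.138 in edgeR's test). Hbegf, which encodes heparin-binding EGF-like growth factor, varied most among the abundant members, at 60.4, 41.2, 88.2 and 42.6 CPM in WT and 80.3, 47.1, 77.5 and 69.5 CPM in KO. Its difference (log2 fold change 0.24, 95% interval -0.33 to 0.82, unadjusted p = 0.371 in edgeR's test) moved with the mice left out: it was 0.52 with an unadjusted p of 0.0340 without WT replicate 3, the mouse with the highest level, and 0.11, 0.12 and 0.16 without WT replicate 2, WT replicate 4 and KO replicate 1. Without WT replicate 4, Tgfa was at 0.26 with an unadjusted p of 0.0411. In both cases the adjusted p over all genes stayed above 0.05.

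Btc, which encodes betacellulin, was at 6.47, 6.87, 8.20 and 7.56 CPM in WT and 8.44, 4.69, 7.66 and 7.78 CPM in KO (log2 fold change -0.027, 95% interval -0.47 to 0.41). It is the third tested gene of the chromosome 5 cluster and, unlike Ereg and Areg, it had KO mice on both sides of the WT mice, with KO replicate 2 the lowest of all 8. The difference between Btc and its neighbours was not tested. Egf, the founding ligand, had few reads and the widest relative spread, at 7.12, 2.52, 3.52 and 4.93 CPM in WT and 2.56, 2.17, 3.42 and 6.48 CPM in KO (log2 fold change -0.30, 95% interval -1.22 to 0.62). Its coefficient of variation between mice was 44.1% in WT and 53.4% in KO, where counting error gives 10.0% and 10.1%. Paneth cells are known as a source of Egf in the crypt, and the summed level of 10 Paneth markers also varied widely, from 15710 to 51869 CPM in WT and from 8039 to 26657 CPM in KO. WT replicate 1 was the highest WT mouse for both Egf and the Paneth markers and KO replicate 4 the highest KO mouse for both. The part of Paneth cell content in the level of Egf was not tested.

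**Figure D2:**
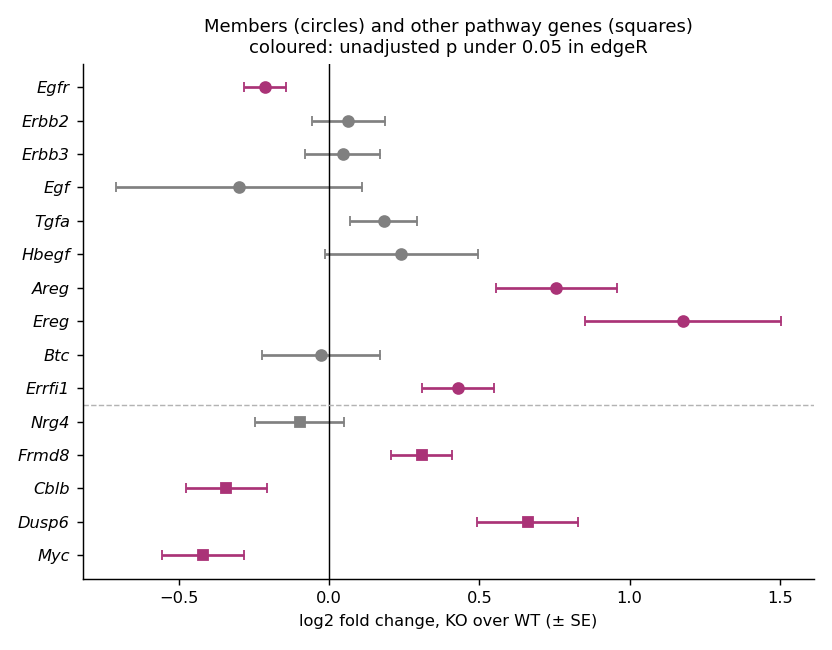
Log2 fold change of KO over WT ± SE in edgeR's fit for the 10 members (circles) and 5 other genes of the pathway (squares), with an unadjusted p under 0.05 in colour. Ereg, Areg and Errfi1 lie right of 0 at 1.18, 0.76 and 0.43, Egfr left of it at -0.21, and the bars of Erbb2, Erbb3, Egf, Btc and Hbegf cross 0.

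Levels of different genes were compared per length, as the deposited FPKM. Erbb3 was the most abundant member, at 48.9 to 71.0 FPKM over the 8 mice, above 94.5% of all genes tested. Erbb2 (29.7 to 42.8 FPKM) and Hbegf (17.2 to 37.1 FPKM) followed and overlapped with each other, and Errfi1 lay at 10.5 to 18.8 FPKM. Areg (4.51 to 11.5), Egfr (3.72 to 4.83) and Tgfa (3.30 to 4.54 FPKM) overlapped with their neighbours in this order. Btc (1.04 to 1.87), Ereg (0.342 to 1.89) and Egf (0.192 to 0.622 FPKM) were the lowest and overlapped likewise. Gaps that no mouse crossed lay between Erbb3 and Erbb2 and between Tgfa and Btc.

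Of the summed FPKM of the 3 receptors, Erbb3 took 58.8% ± 4.68 in WT and 59.3% ± 1.83 in KO, and Egfr took 4.55% ± 0.706 of it in the WT mice and 3.82% ± 0.573 in the KO mice (SD, n = 4). Of the summed FPKM of the 6 ligands, Hbegf took 66.0% ± 7.0 in WT and 63.0% ± 1.97 in KO. The share of Areg was 17.2%, 16.3%, 12.3% and 17.6% in WT replicates 1 to 4 and 22%, 19.6%, 20.3% and 20.7% in KO replicates 1 to 4. All 4 KO mice were above all 4 WT mice in this share, also KO replicate 2, in which the level of Areg was within the WT range. The share of Btc lay the other way with no overlap, at 3.67% to 5.5% in WT and 3.21% to 3.60% in KO, while the level of Btc itself overlapped widely. The share of Ereg stayed small, at 0.693% to 2.48% in WT and 1.99% to 3.96% in KO, and overlapped. The summed ligand level was 36.1 ± 9.74 FPKM in WT and 45.7 ± 9.08 FPKM in KO (SD, n = 4 each) and overlapped as well. Shares of a sum are tied to each other and no test was made of them.

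**Figure D3:**
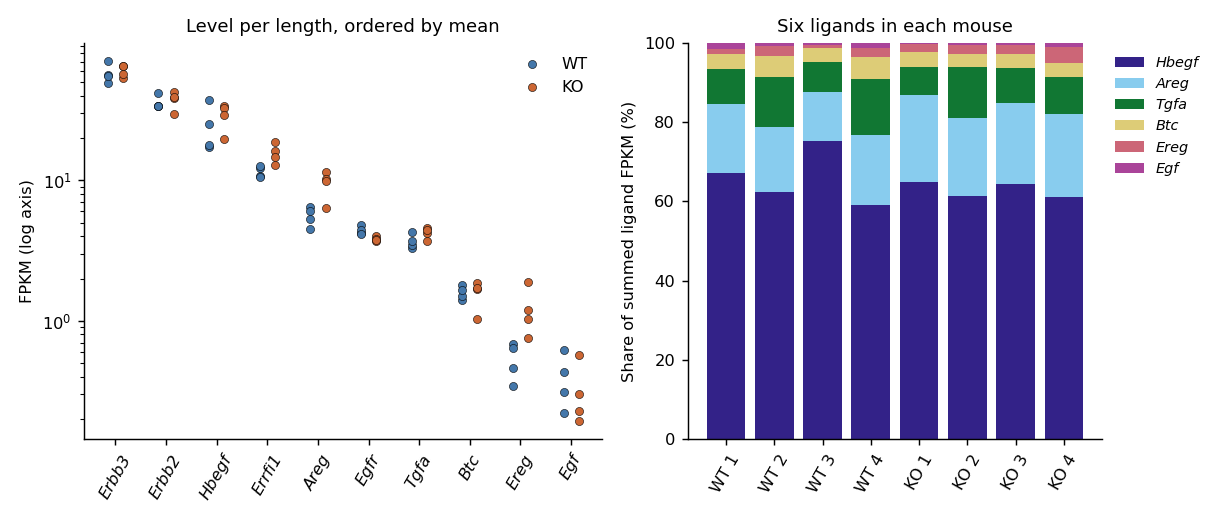
Left, deposited FPKM of the 10 members on a log axis, ordered by their mean, with 4 WT and 4 KO mice as points. Right, the share of each of 6 ligands in their summed FPKM in each mouse: Hbegf fills 59.0% to 75.2% of every bar, and Areg fills 12.3% to 17.6% in WT and 19.6% to 22% in KO.

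The remaining receptor and ligands of the family were nearly silent apart from Nrg4. Erbb4, the fourth receptor, had 0 reads in all 8 mice, which allows at most 0.148 CPM in any library (3 reads of its total; counting error only). Nrg1 had 0 to 7 reads, Nrg2 0 to 3, Nrg3 0 and Epgn 0 to 5, and these 5 genes did not pass the filter. Nrg4, which encodes a ligand of ERBB4, averaged 5.08 ± 0.552 CPM in the WT mice and 4.75 ± 0.312 in the KO mice (SD, n = 4; log2 fold change -0.098, 95% interval -0.43 to 0.24).

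Further along the pathway, 81 of 88 listed genes were tested and 4 passed the unadjusted threshold, 2 in each direction. That is 4.94%, below the 8.38% of all genes tested that passed. The median log2 fold change of the 81 was -0.0042, against -0.016 over all genes tested. None of them had an adjusted p under 0.05 in edgeR's test (smallest 0.518). Of 11 tested genes of ligand shedding, 1 passed the unadjusted threshold: Frmd8, whose product stabilises the sheddase ADAM17 with its iRhom partners at the cell surface, was at 56.3, 46.7, 58.6 and 55.2 CPM in WT and 65.5, 59.7, 78.2 and 65.0 CPM in KO. Every KO mouse was above every WT mouse (log2 fold change 0.31, standard error 0.10, unadjusted p = 0.0136, adjusted p = 0.518 in edgeR's test). Adam17 itself averaged 49.0 ± 2.19 CPM in the WT mice and 47.0 ± 4.99 in the KO mice (SD, n = 4).

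Of 17 tested genes that restrain the receptors or sort them after uptake, only Cblb passed, and it was lower in KO. Cblb encodes a ubiquitin ligase of the CBL family and was at 29.2, 20.6, 24.9 and 24.1 CPM in WT and 18.6, 17.3, 18.7 and 23.2 CPM in KO. The genotypes overlapped through KO replicate 4 (log2 fold change -0.34, standard error 0.14, unadjusted p = 0.0313, adjusted p = 0.557 in edgeR's test). Of 32 tested adaptor, RAS-ERK and PI3K genes, 0 passed the unadjusted threshold in edgeR's test (14 were above 0 and 18 below, smallest adjusted p = 0.601). With the replicate number as a block, 7 of the 81 genes (8.64%) passed the unadjusted threshold, against 11.3% of all genes tested in that fit.

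Of 20 ERK feedback and output genes, 10 lay above 0 and 10 below. Dusp6, which encodes a phosphatase of ERK that is itself an ERK target, was at 9.75, 9.44, 7.42 and 11.8 CPM in WT and 13.2, 18.1, 13.5 and 15.9 CPM in KO. All KO mice were above all WT mice (log2 fold change 0.66, standard error 0.17, unadjusted p = 0.00310, adjusted p = 0.518 in edgeR's test). Myc, a growth-promoting transcription factor under WNT and ERK control, was at 139, 110, 88.3 and 104 CPM in WT and 91.5, 79.7, 72.1 and 86.6 CPM in KO. Its ranges crossed at WT replicate 3 (log2 fold change -0.42, standard error 0.14, unadjusted p = 0.0125, adjusted p = 0.518 in edgeR's test). The other 18 genes of this list did not pass, among them Egr1, an immediate early gene, with 534 ± 136 CPM in the WT mice and 598 ± 138 in the KO mice (SD, n = 4).

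For each member, the gene of the family or pathway lists that followed it most closely from mouse to mouse was named, over the 8 mice and after subtracting the mean of each genotype. The highest Pearson correlations among 90 genes lay between 0.86 and 0.94, and the 2 mice farthest from the median were then left out to see what each rested on. Errfi1 was most like Egr1 (r = 0.90, Spearman rho 0.88, r = 0.87 without these 2 mice), Tgfa like Mapk3 (0.86, 0.90, 0.86), Btc like Ier3 (0.88, 0.95, 0.83) and Ereg like Phlda1 (0.93, 0.88, 0.83). For Areg and Dusp5 r was 0.92 and went to 0.31 without the 2 farthest mice, and for Egfr and Spry4 it went from 0.88 to 0.45, so these 2 likenesses rest on those mice. Between these lay Egf with Cblb, Erbb2 with Pik3cb, Hbegf with Ier3 and Erbb3 with Lrig2. Each of these is the best of 90 and is a description of 8 libraries that share their depth and cell content within each mouse.

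Markers of cell types and of gut position are given beside these results. Villus enterocyte markers summed to 1885, 1374, 2110 and 4016 CPM in WT and 2308, 2849, 9727 and 5803 CPM in KO, and all 10 of them had a log2 fold change above 0. Ileal markers summed to 293, 595, 442 and 722 CPM in WT and 673, 964, 1311 and 1332 CPM in KO, with all 7 above 0 and 6 at an unadjusted p under 0.05. Among the 9 tested immune markers 6 lay above 0, and 2 T cell genes, Cd3e and Cd8a, passed the unadjusted threshold (log2 fold changes 1.6 and 1.29). Of all genes tested, 46.1% lay above 0 and 5.33% were higher in KO at that threshold. None of these villus, ileal and immune markers had an adjusted p under 0.05 in edgeR's test. Goblet cell markers lay above 0 in 6 of 7 cases, Paneth markers below 0 in 9 of 10 and tested tuft cell markers below 0 in all 5. Of the other position markers, 3 of 7 proximal, 4 of 4 tested colon and 0 of 2 tested duodenal gland markers lay above 0, and these sums overlapped between the genotypes. Among the KO mice, KO replicate 4 was the highest for Ereg, Errfi1 and the ileal sum, KO replicate 3 for the villus sum and KO replicate 1 for Areg. KO replicate 2 was the lowest for Areg, Ereg and Errfi1, and KO replicate 1 was the lowest for the ileal and villus sums. The part of cell composition or gut position in the levels of Areg, Ereg, Errfi1 and Egfr was not tested.

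**Figure D4:**
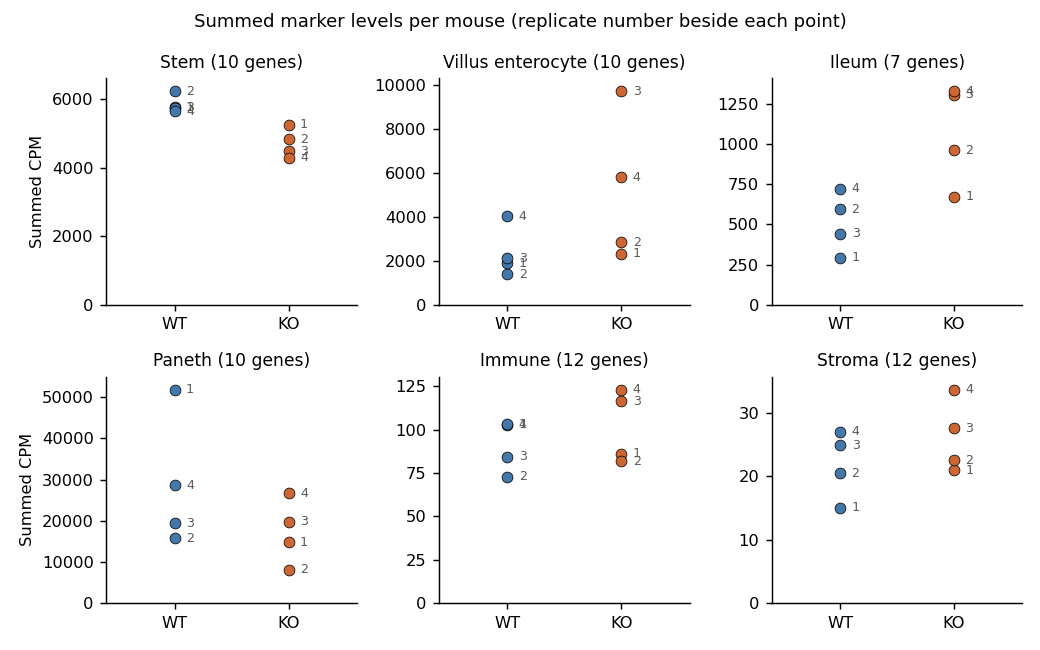
Summed CPM of 6 marker lists in each mouse (axes from 0, replicate number beside each point). The stem cell sum is lower in all 4 KO mice (4289 to 5258 CPM) than in the WT mice (5650 to 6230 CPM), with Olfm4 as 61.1% to 71.9% of it, and the other 5 sums overlap between the genotypes, with villus and ileal sums reaching highest in KO replicates 3 and 4.

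As MEX3A binds RNA, the MEX3A recognition element that the study searched for was sought in each member's 3'UTR, taken from its longest coding transcript (GENCODE M21 on GRCm38; overlapping matches counted separately). The element is short and common: 74.2% of 13004 tested genes with a 3'UTR held it, at 2.74 matches per kb over all. Ereg held 11 matches in 3501 bases, Errfi1 4 in 1385 bases and Egfr 19 in 6303 bases, or 3.14, 2.89 and 3.01 per kb. Areg held 0 matches in its 253 bases, in a length group in which 27.6% of genes held any. Of the members that did not pass the unadjusted threshold, Egf had 3.97 matches per kb, Hbegf 2.75, Btc 2.42, Erbb2 1.91, Erbb3 1.08 and Tgfa 0.797. The match nearest the stop codon is shown for Errfi1 and Egfr, to let the element be seen in a member that was higher and in the member that was lower in KO. Capitals mark the element, within 30 bases of the plus strand read 5′ to 3′ as DNA, and the coordinates are those of the element.

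Errfi1, chr4:150867659-150867673: tatgctgGGAGTCCCTGATCTAtcagcata
Egfr, chr11:16912179-16912188: acagacatatGGAGCTTATAtttagggaac

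The direction and the unadjusted call of Areg, Ereg, Errfi1 and Egfr were recomputed under 19 other settings, of which 8 each left out 1 mouse. In all 19, each of the 4 kept its direction and an unadjusted p under 0.05, with highest values of 0.0137 for Areg (without KO replicate 1), 0.0163 for Ereg (without KO replicate 4), 0.0183 for Errfi1 (without WT replicate 4) and 0.0427 for Egfr (without KO replicate 2). The adjusted p of the 4 lay between 0.0608 and 0.952 over these settings. The log2 fold change of Ereg was 0.51 with limma on log2(FPKM + 1), where the pseudocount is as large as the level of the gene itself.

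**Figure D5:**
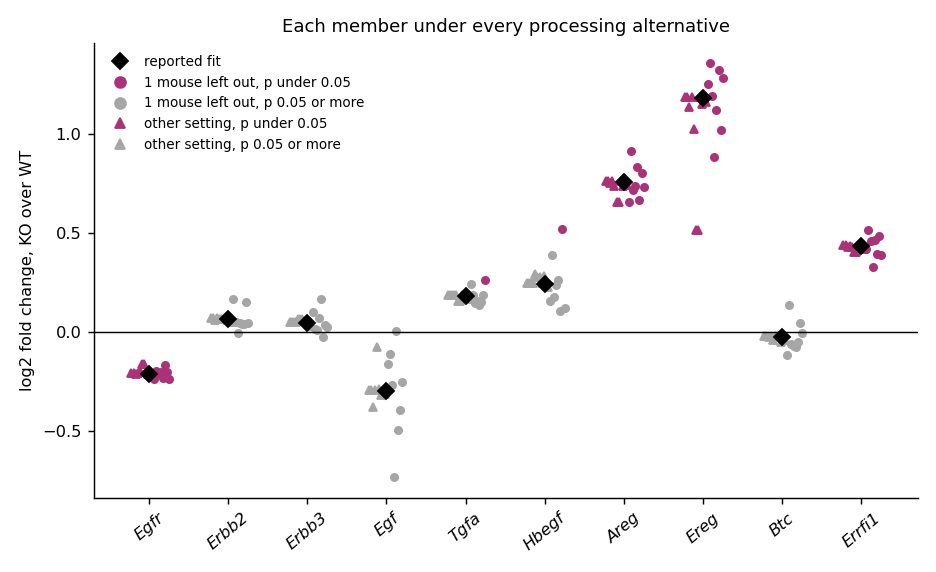
Log2 fold change of each member under the reported fit (diamond) and 19 alternatives, or 17 for Egf, which the filter on low FPKM left out of 2 (circles, 1 mouse left out; triangles, another test, filter, scaling or covariate), coloured where the unadjusted p is under 0.05. All points of Areg, Ereg, Errfi1 and Egfr are coloured and on the same side of 0, and Tgfa and Hbegf have 1 coloured point each.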

How the data were processed

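RNA of intestinal crypts from 4 Mex3a KO and 4 WT mice was analysed. The members and gene lists were chosen with earlier results of these data known. Counts of reads per gene, not normalized, were deposited by the authors (tools named in the submitters' processing notes, without their roles: HISAT2 2.0.5, featureCounts 1.5.0-p3 and CASAVA). The deposited FPKM equal the counts divided by gene length and by 1 scaled library size per mouse, which is 0.961 to 1.05 times the total count. The authors' own DESeq2 fold changes and p-values were not used.

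From the counts, edgeR 4.0.16 (R 4.3.3) was run with filterByExpr (minimum count 10), TMM and the quasi-likelihood test, with genotype as the only term over all 8 mice and Benjamini-Hochberg adjustment over 16109 genes. Standard errors are the log2 fold change over the square root of F. Exact permutation tests used log2(CPM + 0.5) and all 70 assignments of the mice. Alternatives used DESeq2 1.42.0 and limma 3.58.1. On simulated counts for this comparison (16109 genes, 200 changed), edgeR's test recovered 87.0% of 4-fold and 54.3% of 2-fold changes with 3.36% false calls. DESeq2 recovered 89.8% and 67.4% of them, with 19.7% false calls. The simulated counts were drawn from dispersions that edgeR estimated, without sex or replicate structure. The false share of DESeq2 in the real counts was not measured. Same-numbered mice deviated together (r = 0.129 to 0.501 over all genes in the 4 pairs), and the numbers were fitted as a block in an alternative. Mice of different numbers were not compared. The numbers also follow Xist and Ddx3y, with Ddx3y in replicates 1 and 2 of both genotypes. Whether the numbers pair the mice beyond this shared group was therefore not tested. The reported p-values, errors and permutations do not use the replicate numbers. No 2 libraries of the same genotype were alike within sampling noise. Named were all members and, from each pathway list, at most 3 genes per direction with the smallest unadjusted p under 0.05, besides all other receptors and ligands and, for each member, the gene most like it across mice. Adam17 was named after its values were seen. The listed gene Nrdc appears as Nrd1 in the file.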

Additional observations from a re-analysis of the deposited data

Results flagged for a closer look

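Dixon's ratio of gap to range was computed for the level of each member in each genotype. Of 20 groups of 4 mice, 1 passed the 95% critical value, and chance gives about 1 in 20: for Erbb2, WT replicate 3 lay at 218 CPM and the other WT mice at 177 to 179 CPM (ratio 0.948).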

How the results depend on the processing

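The count of members with an unadjusted p under 0.05 was 4 in the reported fit, and 4 or 5 in every alternative, and 0 had an adjusted p under 0.05 in any. Over all genes, the adjusted count of 1 went to 93 with DESeq2 (19.7% of whose calls were false on counts simulated with edgeR's dispersions). It was 4 with the Xist or Y group as covariate, 3 with limma without a filter and 2 without a filter in edgeR. It was 0 with at least 10 counts in every mouse and 0 with the replicate block. With 1 mouse left out it ranged from 0 to 4. The unadjusted count of 1350 ranged from 846 (without KO replicate 3) to 2133 (without KO replicate 1). The 4 pathway list genes became 7 with the replicate block and 8 with the Xist or Y covariate, where the count over all genes became 1815 and 1814 (both 11.3%), and ranged from 3 to 9 when 1 mouse was left out. The replicate block changed no call of a member. Leaving out 1 mouse turned the sign of members near 0: Erbb2 (-0.0056 to 0.16), Erbb3 (-0.028 to 0.16), Btc (-0.12 to 0.13, and 0.041 without WT replicate 3) and Egf (-0.74 to 0.0033). It gave Tgfa 0.13 to 0.26 and Hbegf 0.11 to 0.52. With 1 mouse left out, the exact permutation p was 0.0286 or 0.0571 for Ereg, Errfi1 and Egfr (0.0286 with all mice), and 0.0286 to 0.0857 for Areg (0.0571 with all mice). Counting error, set by depth, was 14.3% for Ereg in WT and about 10% for Egf, below the spread between mice in both. The causes were not tested.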
